A study of Homo sapiens with 36 samples.

Results

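Before any drug is added, MONO-MAC-6 and MOLM-13, human acute myeloid leukaemia cell lines of monocytic type, already differ in a large share of their genes. The data here are the 6 vehicle (DMSO) samples of the series, 3 of MONO-MAC-6 and 3 of MOLM-13, out of 12 samples in all, or 18 of the 36 sequencing libraries. They were taken by their labels alone: every library labelled DMSO, with the 3 libraries that share a first number averaged into 1 sample. Genes of the X and Y chromosomes were left out, and a gene was tested where its mean reached 1 TPM (a transcript's share of the library, corrected for transcript length) in either line.

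Both lines were grown from patients with acute monocytic leukaemia and carry a fusion of KMT2A with MLLT3, which holds cells at an early myeloid stage and drives HOXA genes and MEIS1. Along the normal path from the granulocyte-monocyte progenitor, cells first fill primary granules with proteases such as those of PRTN3, ELANE and CTSG. They then gain monocyte proteins such as CD14, lysozyme (LYZ) and the calcium-binding S100A8 and S100A9, and in tissue they turn on macrophage genes of lipid handling such as APOE and LPL. The transcription factors PU.1 (gene SPI1) and C/EBP (CEBPA, CEBPB, CEBPD) are known to drive much of this path.

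Each group was 1 cell line in RPMI medium with serum, given DMSO for 72 h, and the labels name the genotype of every sample as WT, with no engineered allele. The other 6 samples, used below only as a second look at the same contrast, had received A9 for 72 h, a PROTAC (a molecule that brings a target protein to a ubiquitin ligase to have it degraded), at 0.125 µM for MOLM-13 but 0.25 µM for MONO-MAC-6. Poly(A) RNA was sequenced. The labels do not say whether the 3 samples of a line were separate cultures, so p-values measure the spread between these samples, which may be technical. Each line stands for 1 donor. In bulk RNA, fewer cells of a type and less RNA per cell cannot be told apart.

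The number of reads per library is not in TPM, so depth stays unknown and counting error cannot be stated. A MOLM-13 library listed 86918 to 96635 transcripts above 0, a MONO-MAC-6 library 92229 to 102691. MONO-MAC-6 sample 1 stood apart from samples 2 and 3: ribosomal protein genes held up to 26.4% of TPM in it and from 19.0% in the others, and mitochondrial genes from 6.09% in it and up to 9.47% in the others. In MOLM-13 these shares ran from 25.0% to 29.3% and from 4.85% to 5.76%. CDKN2A, at 583 TPM in MONO-MAC-6, was listed at 0 in every MOLM-13 library. PDLIM1, at 499 TPM in MOLM-13, averaged 0.843 TPM in MONO-MAC-6 and was at least 0.467 TPM in every library there. A trace of MOLM-13 material and low expression in MONO-MAC-6 cannot be told apart at that level, and neither was tested.

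Promoters of 4 genes that turn up in the results below are shown first, because S100A9 and S100A12 are neighbours that both stood higher in MONO-MAC-6, and PRTN3 and CTSG, primary granule proteases, went opposite ways. Each is the 250 bases before the annotated start, from RefSeq on GRCh38.p14, 5′ to 3′ on the gene's strand. Capitals mark matches to a C/EBP form, TTNNGCAA (TTGCNNAA on the other strand), and to a PU.1 form, GAGGAAG, which reads CTTCCTC on the other strand. Matches of the 2 forms share no letters here.
S100A9, chr1:153357604-153357853, plus strand: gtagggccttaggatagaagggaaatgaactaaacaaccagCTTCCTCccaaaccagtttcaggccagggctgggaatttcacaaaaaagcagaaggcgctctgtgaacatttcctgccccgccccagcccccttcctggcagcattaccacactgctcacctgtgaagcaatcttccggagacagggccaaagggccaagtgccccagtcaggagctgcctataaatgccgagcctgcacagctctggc
S100A12, chr1:153375622-153375871, minus strand: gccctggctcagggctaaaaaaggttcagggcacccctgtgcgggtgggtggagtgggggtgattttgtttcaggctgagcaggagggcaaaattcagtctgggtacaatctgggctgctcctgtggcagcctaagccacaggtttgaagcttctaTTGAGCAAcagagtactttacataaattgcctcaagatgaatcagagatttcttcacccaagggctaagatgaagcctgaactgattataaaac
PRTN3, chr19:840749-840998, plus strand: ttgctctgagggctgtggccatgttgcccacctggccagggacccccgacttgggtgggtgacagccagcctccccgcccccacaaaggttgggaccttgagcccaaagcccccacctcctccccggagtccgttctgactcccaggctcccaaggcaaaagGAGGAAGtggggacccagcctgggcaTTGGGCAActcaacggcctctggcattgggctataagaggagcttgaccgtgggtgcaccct
CTSG, chr14:24576251-24576500, minus strand: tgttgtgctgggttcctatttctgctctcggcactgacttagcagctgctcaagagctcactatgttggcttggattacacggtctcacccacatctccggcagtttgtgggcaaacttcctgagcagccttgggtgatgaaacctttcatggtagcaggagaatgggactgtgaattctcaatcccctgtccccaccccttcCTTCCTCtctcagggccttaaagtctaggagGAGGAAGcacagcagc
Of 35116 promoters of this length, 9.05% hold the C/EBP form and 11.2% the PU.1 form, and 0.888% hold both, as PRTN3 does. Counted by gene, 11% of 27305 genes hold the C/EBP form before any of their starts. Of the primary granule genes described below, 9 were higher in MONO-MAC-6 and 6 in MOLM-13, but only 4 on each side had a listed promoter. Among these, the C/EBP form was present in 4 of 4 higher in MONO-MAC-6 (PRTN3, AZU1, RNASE3 and MS4A3) and in 1 of 4 higher in MOLM-13 (RNASE2). The others could not be read. For comparison, among genes with a listed promoter, it was present in 3 of 13 monocyte genes higher in MONO-MAC-6 and 1 of 7 higher in MOLM-13. It was also present in 1 of 7 macrophage genes higher in MONO-MAC-6. Among monocyte genes with a promoter in the table, the PU.1 form, which 13.4% of all genes hold, was present in 6 of 13 higher in MONO-MAC-6 and 4 of 7 higher in MOLM-13, so it was not on 1 side. A match is a description of letters and no evidence of binding.

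The lines differed broadly. Of 12498 autosomal genes tested, 6090 (48.7%) passed an adjusted p of 0.05 (limma, Benjamini-Hochberg over all genes tested). Of these, 3838 (30.7% of genes tested) were higher in MONO-MAC-6 and 2252 (18%) higher in MOLM-13, and 2980 (23.8%) also differed by at least 1 on the log2(TPM + 1) scale, the scale of every log2 difference below. These were 1983 genes (15.9%) higher in MONO-MAC-6 and 997 (7.98%) higher in MOLM-13. The 3 samples of one line lay entirely above those of the other for 7367 genes (58.9%). The split by direction rests on the scaling. The median gene stood 0.13 higher in MONO-MAC-6, and 63.0% of calls were on that side, but with median-ratio scaling the median was -0.08 and the share 47.3%. Without MONO-MAC-6 sample 1, 7813 genes passed, 68.0% of them higher in MONO-MAC-6. No gene named by rule that passed the threshold changed direction under any setting tried.

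The 10 highest differences toward MONO-MAC-6 were 6.95 or more, and the 10 lowest ran from -4.69 to -8.08. After the HLA class I genes, treated separately below, the genes most in favour of MONO-MAC-6 were CDKN2A, PTGDS, FEZ1, APOE, UCHL1, ORM1 and DPEP3. CDKN2A, which encodes the cell-cycle inhibitor p16INK4a and the p53 activator p14ARF, measured 653, 528 and 568 TPM in MONO-MAC-6 samples 1 to 3 and 0 in all MOLM-13 samples. Sets of 3 values below are samples 1 to 3 in that order. PTGDS, a prostaglandin D synthase, measured 0.421, 0.364 and 0.705 TPM in MOLM-13 against 295, 278 and 265 in MONO-MAC-6, a difference of 7.55 (SE 0.13, adjusted p = 9.97e-07). These are gaps between a line at or near 0 and a line with an abundant transcript. FEZ1, known from nerve cell axons, measured 1.10, 0.899 and 0.643 TPM in MOLM-13 against 321, 289 and 289.6 in MONO-MAC-6, and UCHL1, a neuronal ubiquitin hydrolase, 0 and 155, 129 and 123. ORM1, an acute-phase plasma protein, averaged 137 TPM in MONO-MAC-6 and 0.0302 in MOLM-13; its near-identical neighbour ORM2 can share its reads.

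The other extreme was led by PDLIM1, a scaffold of the actin cytoskeleton, with 503, 496 and 497 TPM in MOLM-13 against 0.724, 0.926 and 0.878 in MONO-MAC-6 (-8.08, SE 0.10, adjusted p = 2.46e-07). It was followed by the homeobox genes UNCX (-5.58) and HOXC4 (-5.04), the lysosomal protein LAMP5 (-5.58) and the lysosomal protease CTSB (-5.31). The monocyte and T helper cell receptor CD4, the myeloid adaptor DOK2 and the adhesion molecule NCAM1, known as CD56, were also among the 10. NCAM1 measured 53.2, 34.2 and 23.9 TPM in MOLM-13 against 0.201, 0.358 and 0.634 in MONO-MAC-6. CTSB measured 84.3, 85.7 and 77.05 TPM in MOLM-13 against 1.19, 0.975 and 1.15 in MONO-MAC-6. CTSB is abundant in most macrophages, yet it was low in the line that had more of the listed macrophage transcripts. AIF1 (-5.58), a calcium-binding protein of macrophages, lies in the MHC region, where reads can go to copies on other haplotypes. The 10 highest and 10 lowest genes all stayed past the threshold whichever of the 6 samples was left out.

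Monocyte genes were far more abundant in sum in MONO-MAC-6, though not every member was. Of 40 surface and secreted genes of monocytes, 31 were tested: 16 were higher in MONO-MAC-6 and 9 in MOLM-13, where 30.7% and 18% of all genes tested were, and 6 did not pass. Without MONO-MAC-6 sample 1 the counts were 18 and 10. The median difference was 1.02, against 0.13 over all genes tested. The summed level of the list ran from 673 to 744 TPM in MOLM-13 and from 8438 to 10070.0 in MONO-MAC-6, and most of it came from 3 secreted or cytosolic proteins. S100A9 measured 69.98, 71.7 and 75.8 TPM in MOLM-13 against 3817, 2634 and 2503 in MONO-MAC-6 (5.32, SE 0.17, adjusted p = 5.23e-06). Its partner S100A8 measured 76.8, 78.8 and 84.9 TPM in MOLM-13 against 2633, 1684 and 1741 in MONO-MAC-6, and LYZ 138, 141 and 122 TPM in MOLM-13 against 3068, 3624 and 3548 in MONO-MAC-6. For each of the 3 the lowest MONO-MAC-6 sample stood far above the highest MOLM-13 sample.

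**Figure D1:**
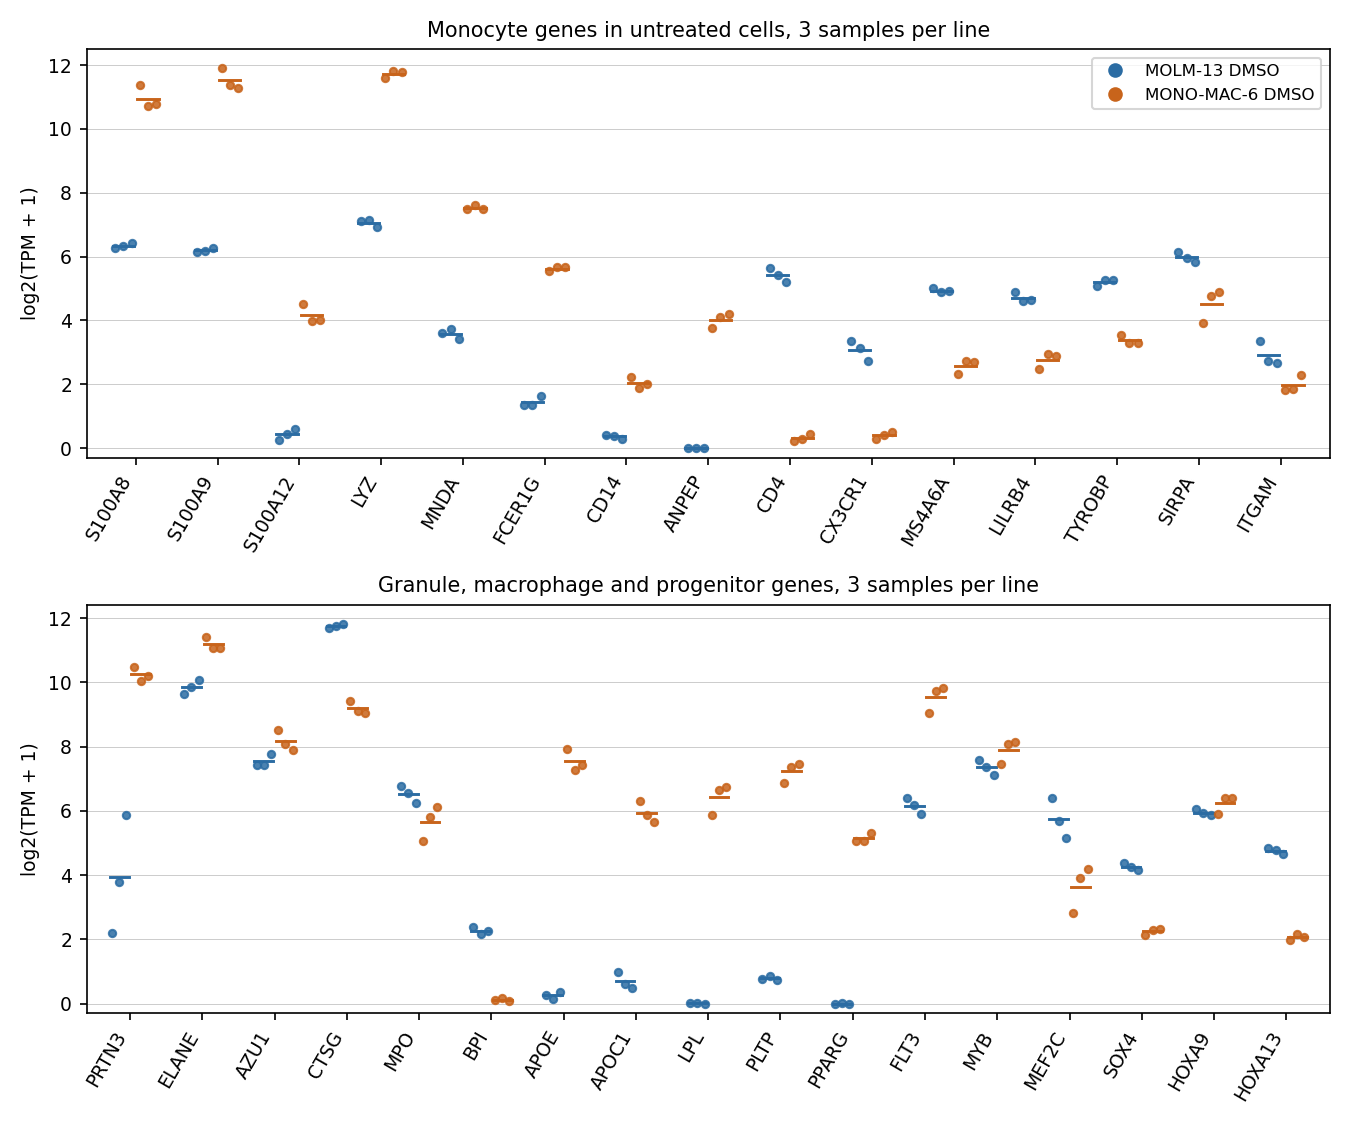
Levels on the log2(TPM + 1) scale (y axis) of monocyte genes (upper panel) and of granule, macrophage and progenitor genes (lower panel) in MOLM-13 DMSO (blue) and MONO-MAC-6 DMSO (orange). Points are samples 1 to 3 from left to right and bars their means. S100A8, S100A9, LYZ and APOE stand high in MONO-MAC-6, CD4, CX3CR1 and CTSG in MOLM-13, and HOXA9 overlaps.

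Other members followed the same direction at lower levels. The interferon-inducible nuclear protein MNDA measured 11.3, 12.2 and 9.75 TPM in MOLM-13 against 179.9, 196 and 178 in MONO-MAC-6, and the Fc receptor gamma chain FCER1G 1.54, 1.58 and 2.08 TPM in MOLM-13 against 45.5, 49.8 and 50.03 in MONO-MAC-6. S100A12, from the same S100 cluster, differed by 3.74, the aminopeptidase CD13 (ANPEP) by 4.03, the matrix proteoglycan VCAN by 3.62 and the chemokine receptor CCR2 by 2.01. CD14, the lipopolysaccharide co-receptor, was low in both: 0.346, 0.315 and 0.225 TPM in MOLM-13 against 3.71, 2.66 and 3.05 in MONO-MAC-6 (1.67, adjusted p = 0.000114). In both lines CD14 lay far below the S100 genes.

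A second set of monocyte genes was higher in MOLM-13. CD4 measured 48.9, 41.9 and 35.98 TPM in MOLM-13 against 0.16, 0.229 and 0.356 in MONO-MAC-6 (-5.11, SE 0.16, adjusted p = 4.05e-06). The fractalkine receptor CX3CR1 differed by -2.68, the membrane protein MS4A6A by -2.36, the inhibitory receptor LILRB4 by -1.95 and the adaptor TYROBP by -1.82. TYROBP carries the signal of TREM2, while FCER1G, which carries that of Fc receptors, went the other way. The integrin chain CD11b (ITGAM) measured 9.16, 5.70 and 5.33 TPM in MOLM-13 against 2.52, 2.58 and 3.85 in MONO-MAC-6, and SIRPA, which binds CD47, 69.04, 61.6 and 55.6 TPM in MOLM-13 against 14.1, 26.2 and 28.8 in MONO-MAC-6. LILRB genes lie in a region with many alternative haplotypes, so their levels are less certain. FCGR1A (difference -0.16, adjusted p = 0.381) and CD33 (-0.24, adjusted p = 0.0983) did not pass, and FCGR3A, FCN1 and CD300E were under 0.5 TPM in every library of both lines.

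The listed macrophage genes that were tested nearly all stood on the side of MONO-MAC-6. Of 25 listed, 10 were tested: 9 were higher in MONO-MAC-6, 0 higher in MOLM-13 and 1 (MSR1) did not pass. Over all genes tested, 30.7% and 18% were called on these sides. The median was 2.59, and the counts were the same without MONO-MAC-6 sample 1. The list was chosen with earlier results of these data known. CTSB (-5.31) and AIF1 (-5.58), given above, are not on it and went the other way. Apolipoprotein E (APOE) measured 0.204, 0.114 and 0.282 TPM in MOLM-13 against 244, 155 and 172 in MONO-MAC-6 (7.29, SE 0.19, adjusted p = 3.22e-06). Lipoprotein lipase (LPL) measured 0.00778, 0.00646 and 0 TPM in MOLM-13 against 57.5, 101 and 106 in MONO-MAC-6, and the phospholipid transfer protein PLTP 0.711, 0.808 and 0.675 TPM in MOLM-13 against 115, 164 and 177 in MONO-MAC-6. Together with APOC1 (5.25), these members are genes of lipoprotein handling. The iron exporter SLC40A1 was listed at 0 in all MOLM-13 samples and measured 7.64, 11.5 and 12.6 TPM in MONO-MAC-6. TREM2, the lipid receptor of macrophages, was low: 0.504, 0.54 and 0.589 TPM in MOLM-13 against 2.15, 1.96 and 2.27 in MONO-MAC-6. The remaining 15 listed genes, among them MRC1 and MARCO, were under 1 TPM in both lines on average, as was CD163 of the monocyte list.

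Primary granule genes were abundant in both lines, and which protease led differed. Of 18 listed, 15 were tested and every one passed: 9 were higher in MONO-MAC-6 and 6 in MOLM-13, or 8 and 5 with scaling. Over all genes tested, 30.7% and 18% were called on these sides. The list's summed level differed little, with 7400 to 8150 TPM in MOLM-13 and 8738 to 9929 in MONO-MAC-6. CTSG, cathepsin G, measured 3302, 3454 and 3626 TPM in MOLM-13 against 692, 557 and 523 in MONO-MAC-6 (-2.56, SE 0.12, adjusted p = 2.02e-05). ELANE, neutrophil elastase, measured 791, 927 and 1077 TPM in MOLM-13 against 2719, 2169 and 2140.1 in MONO-MAC-6 (1.33, adjusted p = 0.000658). PRTN3, proteinase 3, next to ELANE on chromosome 19, measured 3.55, 12.96 and 57.3 TPM in MOLM-13 against 1437, 1062 and 1178 in MONO-MAC-6 (6.30, SE 0.86, adjusted p = 0.00145). The MOLM-13 samples were far apart for PRTN3, but the highest was still below every MONO-MAC-6 sample. AZU1, the third gene of that cluster, was called at 0.63 but passed in 3 of the 6 fits that leave out a sample.

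The proteoglycan SRGN, on which granule proteins are packed, stood at 967, 1019 and 957 TPM in MOLM-13 against 2808, 3042 and 3209.9 in MONO-MAC-6. Cystatin F (CST7) differed by 2.24 and MS4A3, a gene of granulocyte-monocyte progenitors, by 2.04, both higher in MONO-MAC-6. On the other side stood the bactericidal protein BPI (-2.14), the protease PRSS57 (-0.84), the eosinophil-derived neurotoxin gene RNASE2 (-0.52) and myeloperoxidase (MPO). MPO was modest in both, 108, 93.98 and 75.7 TPM in MOLM-13 against 32.4, 54.7 and 68.6 in MONO-MAC-6 (-0.87, adjusted p = 0.0457), and kept the threshold in 2 of 6 leave-one-out fits. Genes of later neutrophil granules were mostly silent: 6 of 23 were tested, and LTF was listed at 0 in every library of both lines. Among those tested, haptoglobin (HP, 2.62) and S100P (2.12) were higher in MONO-MAC-6 and the G-CSF receptor CSF3R (-1.02) in MOLM-13.

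Stem and progenitor genes went both ways, with more calls toward MONO-MAC-6. CD34, KIT and PROM1, defining markers of immature cells, stayed under 0.5 TPM in every library of both lines. Of 35 listed genes 17 were tested, 9 higher in MONO-MAC-6, 4 higher in MOLM-13 and 4 not past the threshold. The shares over all genes tested were 30.7% and 18%. The list's median difference was 0.53, or 0.31 with scaling, against 0.13 and -0.08 over all genes tested. Its summed level ran from 465 to 635 TPM in MOLM-13 and from 889 to 1490 TPM in MONO-MAC-6, where FLT3 made up much of it. The receptor kinase FLT3 measured 84.4, 71.05 and 59.4 TPM in MOLM-13 against 524, 858 and 911 in MONO-MAC-6 (3.37, SE 0.24, adjusted p = 9.43e-05). MOLM-13, known for an internal tandem duplication in FLT3, carried the lower transcript level. The FLT3 sequence was not examined here in either line. GATA2, a factor of stem and mast cells, differed by 1.93, CD38 by 2.77 and MMRN1 by 4.04, all higher in MONO-MAC-6. The lineage factors MEF2C and SOX4 were higher in MOLM-13. MEF2C measured 82.7, 50.3 and 34.7 TPM in MOLM-13 against 6.12, 14.01 and 17.4 in MONO-MAC-6, and SOX4 20.02, 18.2 and 16.7 TPM in MOLM-13 against 3.44, 3.89 and 4.01 in MONO-MAC-6. MYB, needed for leukaemic growth of KMT2A-fused cells, did not pass (0.53, adjusted p = 0.0885).

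HOXA genes were expressed in both lines, and the called differences toward MOLM-13 lay at the 5′ end of the cluster. Of 16 genes tested, 3 were higher in MONO-MAC-6, 4 higher in MOLM-13 and 9 did not pass, beside 30.7% and 18% over all genes tested. With scaling 2 and 5 were called. HOXA9, the central target of KMT2A fusions, measured 65.1, 59.8 and 57.4 TPM in MOLM-13 against 58.4, 84.1 and 83.3 in MONO-MAC-6 (0.29, adjusted p = 0.186), with the groups overlapping. Its neighbours further 5′ were higher in MOLM-13: HOXA10 (-0.85), HOXA11 (-1.09) and HOXA13 (-2.69). HOXA13 measured 27.5, 26.7 and 24.4 TPM in MOLM-13 against 2.94, 3.48 and 3.20 in MONO-MAC-6. HOXA7 was higher in MONO-MAC-6 (0.93, adjusted p = 0.00321). Of the cofactors, PBX3 was higher in MONO-MAC-6 (1.32), MEIS2 in MOLM-13 (-1.13, past the threshold in 3 of 6 leave-one-out fits), and MEIS1 did not pass (-0.52, adjusted p = 0.0574). MLLT3 and KMT2A, whose levels mix the normal and the fused gene, did not pass either. HOXC4, of another cluster, was 37.96, 33.1 and 27.95 TPM in MOLM-13 and at most 0.173 TPM in any MONO-MAC-6 library.

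Markers of other blood lineages were mostly low or missing, but several were higher in MONO-MAC-6. None of CD3E, MS4A1, PF4, PPBP, HBB or CPA3, defining markers of T cells, B cells, platelets, red cells and mast cells, was listed above 0 in any of the 18 libraries. Other members of these lists were expressed in MONO-MAC-6. All 3 erythroid markers tested were higher there: the globin gene HBA1 averaged 6.72 TPM against 0 in MOLM-13, the factor KLF1 1.34 against 0.0189, and the erythropoietin receptor EPOR 18.9 against 12.3. HBA1 shares reads with its near-identical copy HBA2. Of 6 B cell markers tested, 3 were higher in MONO-MAC-6, among them IGLL1 (2.33) and CD79B (2.10), 1 was higher in MOLM-13 (BLNK, -0.74) and 2 did not pass. Beside these few markers, the shares over all genes tested were 30.7% higher in MONO-MAC-6 and 18% higher in MOLM-13. The tryptase genes stood at 60.4, 47.4 and 48.2 TPM (TPSB2) and 37.1, 26.8 and 28.97 TPM (TPSAB1) in MONO-MAC-6, and at or near 0 in MOLM-13. These near-identical copies share reads, so the split between them is uncertain. NKG7, a cytotoxic granule protein, measured 41.1, 42.2 and 39.9 TPM in MOLM-13 against 112, 99.3 and 103 in MONO-MAC-6. The NK cell marker NCAM1 went the other way, as given above. The T-cell receptor constant gene TRAC measured 4.94, 6.89 and 6.80 TPM in MONO-MAC-6 and 3.54, 3.95 and 4.33 in MOLM-13. No list of another lineage exceeded 120 TPM in sum in any sample other than MHC class II and dendritic cell genes, carried by CD74.
CD74, the invariant chain, measured 124, 115 and 111 TPM in MOLM-13 against 182, 241 and 244 in MONO-MAC-6, whereas HLA-DRA, its partner on antigen-presenting cells, stayed under 0.1 TPM in every library.

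Among 34 myeloid transcription factors tested, 15 were higher in MONO-MAC-6, 5 higher in MOLM-13 and 14 did not pass, beside 30.7% and 18% over all genes tested. With median-ratio scaling the counts were 12 and 10. SPI1, CEBPA and IRF8, core factors of the path, differed by less than 1. SPI1 (PU.1) measured 157, 160.1 and 165 TPM in MOLM-13 against 271, 246 and 268 in MONO-MAC-6 (0.70, adjusted p = 0.000429, and 0.056 after scaling). CEBPA differed by 0.29 (adjusted p = 0.0193), which was lost with scaling (0.75), and IRF8 did not pass (0.13, adjusted p = 0.645). Larger gaps lay elsewhere in the list. PPARG, the lipid-sensing nuclear receptor of macrophages and fat cells, measured 0 to 0.00948 TPM in MOLM-13 samples and 32.6, 32.2 and 38.9 in MONO-MAC-6 (5.14, adjusted p = 2.46e-06). EGR1, an early response factor of monocyte differentiation, measured 0.638, 0.587 and 0.512 TPM in MOLM-13 against 25.9, 38.1 and 30.9 in MONO-MAC-6. TCF4 (3.14), BCL6 (1.94), CEBPD (1.56) and ID2 (1.42) were higher in MONO-MAC-6. ZEB1 (-1.97), KLF6 (-1.34), KLF2 (-1.12) and RUNX3 (-0.84) were higher in MOLM-13.

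Growth factor and cytokine receptors fell on both sides, 6 higher in each line and 7 not past the threshold of 19 tested. Over all genes tested, 30.7% were higher in MONO-MAC-6 and 18% in MOLM-13. With median-ratio scaling 5 receptors were higher in MONO-MAC-6 and 9 in MOLM-13. FGFR1 measured 37.3, 31.6 and 25.02 TPM in MOLM-13 against 0.666, 1.64 and 1.12 in MONO-MAC-6 (-3.92, SE 0.23, adjusted p = 4.4e-05). The interleukin-6 receptor IL6R measured 77.7, 66.1 and 54.3 TPM in MOLM-13 against 10.6, 17.3 and 19.3 in MONO-MAC-6 (-2.03). The interferon-gamma receptor chain IFNGR1 was higher in MONO-MAC-6 (1.17, adjusted p = 0.002), and the death receptor TNFRSF1A, which feeds NF-kB, was higher in MOLM-13 (-0.98, adjusted p = 0.000925).

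NR4A1 is named as a target of A9, together with IKK1 in the title of the series and IKK2 in its design text, so the levels of all 3 before treatment bear on it. None of them passed. IKBKB (IKK2) measured 54.4, 45.3 and 36.2 TPM in MOLM-13 against 17.3, 29.9 and 34.6 in MONO-MAC-6 (-0.75, SE 0.28, adjusted p = 0.0702), with no overlap, and it did pass with median-ratio scaling (-0.96, adjusted p = 0.00341). CHUK (IKK1) measured 25.3, 21.9 and 20.2 TPM in MOLM-13 against 17.00, 27.95 and 25.9 in MONO-MAC-6. NR4A1, a nuclear receptor induced early by many signals, measured 4.23, 3.25 and 3.85 TPM in MOLM-13 against 3.52, 4.85 and 5.25 in MONO-MAC-6, and the groups overlapped for both. Of 21 IKK, NF-kB and NR4A genes tested, 7 were higher in MONO-MAC-6, 1 higher in MOLM-13 and 13 did not pass, where 30.7% and 18% of all genes tested were called; with scaling 6 and 4 passed. The share higher in MONO-MAC-6 was thus near that of all genes. The 7 were IKBKE, NFKBIB and TRAF1 and 4 others, as background known to be induced by NF-kB: NFKBIZ (2.26), the feedback inhibitor TNFAIP3 (1.44), RELB (1.24) and BCL3 (1.05). The 1 was the retinoid receptor RXRA, a partner of NR4A1, at 46.8, 41.3 and 37.7 TPM in MOLM-13 against 10.6, 14.4 and 16.9 in MONO-MAC-6. NFKBIA, another feedback gene, did not pass (-0.024, adjusted p = 0.879).

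Target genes of p53 stood largely on the side of MOLM-13. Of 24 tested, 15 were higher in MOLM-13, 3 higher in MONO-MAC-6 and 6 did not pass, with a median of -0.90. Over all genes tested, 18% and 30.7% were called on these sides. With scaling 17 and 2 passed, and without MONO-MAC-6 sample 1 16 and 4. PMAIP1, a p53 target given below with the BCL2 family, is not on this list and was higher in MONO-MAC-6. CDKN1A, the cell-cycle inhibitor p21, measured 112, 110.1 and 102 TPM in MOLM-13 against 6.26, 6.05 and 7.60 in MONO-MAC-6 (-3.84, SE 0.12, adjusted p = 3.95e-06). MDM2, the ligase that degrades p53, measured 36.5, 31.2 and 30.6 TPM in MOLM-13 against 10.7, 9.99 and 7.80 in MONO-MAC-6, and PHLDA3, an inhibitor of AKT, 26.02, 25.7 and 27.2 TPM in MOLM-13 against 4.51, 4.30 and 4.11 in MONO-MAC-6. For each of them the lowest MOLM-13 sample stood above the highest MONO-MAC-6 sample. TIGAR (-1.97), the death receptors TNFRSF10B (-1.79) and FAS (-1.12), and BBC3 (-0.95), which encodes PUMA, were also higher in MOLM-13. TP53I3 (1.63), GDF15 (0.88) and CCNG1 (0.35) were higher in MONO-MAC-6.

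**Figure D2:**
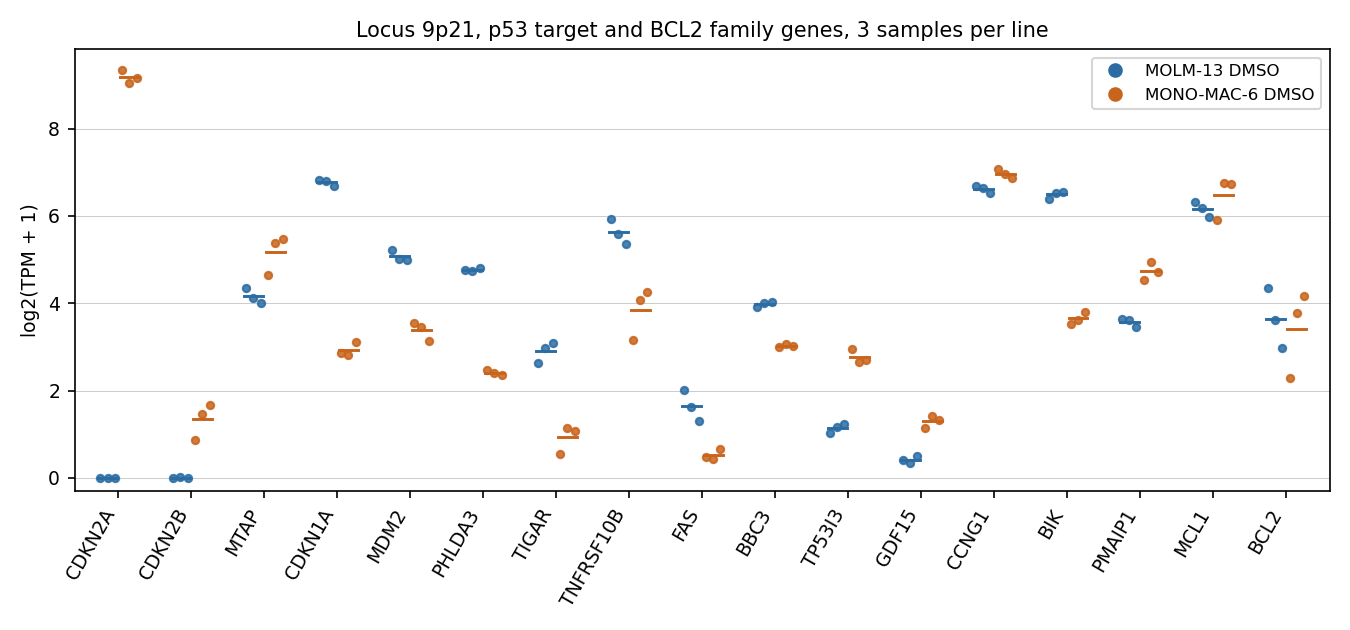
Levels on the log2(TPM + 1) scale (y axis) of 9p21, p53 target and BCL2 family genes in MOLM-13 DMSO (blue) and MONO-MAC-6 DMSO (orange). Points are samples 1 to 3 and bars their means. CDKN2A is at 0 in MOLM-13, CDKN1A to BBC3 are higher in MOLM-13, and MCL1 and BCL2 overlap.

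CDKN2A (chr9:21967753-21995301, GRCh38) was abundant in one line and missing from the other. All 14 of its annotated transcripts were listed at 0 in all 9 MOLM-13 libraries. In MONO-MAC-6 both products were there: the transcript CDKN2A-201, which encodes p16INK4a, averaged 268 TPM, and CDKN2A-214, which encodes p14ARF, 135 TPM. The neighbouring CDKN2B (p15INK4b) reached at most 0.021 TPM in a MOLM-13 library and measured 0.826, 1.77 and 2.20 TPM in MONO-MAC-6. The next expressed gene on one side, MTAP, was expressed in MOLM-13 as well, at 19.3, 16.4 and 15.1 TPM against 24.3, 40.8 and 43.7 in MONO-MAC-6. On the other side TUSC1 went the opposite way, 3.29, 3.51 and 3.77 TPM in MOLM-13 and at most 0.0369 TPM in a MONO-MAC-6 library. Of the 7 tested genes of the 9p21 list, 5 were higher in MONO-MAC-6 and 0 in MOLM-13, against 30.7% and 18% of all genes tested. TUSC1 is not on that list and was called higher in MOLM-13 (-2.17).

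RB1, the retinoblastoma protein on which p16INK4a acts, went the other way, and was picked after its values were seen. It measured 40.9, 36.4 and 31.2 TPM in MOLM-13 against 2.07, 5.85 and 4.67 in MONO-MAC-6 (-2.91, SE 0.31, adjusted p = 0.000518). The principal transcript, RB1-201 (chr13:48303726-48481890), averaged 29.1 TPM in MOLM-13 and was listed at 0 in all 9 MONO-MAC-6 libraries. What remained in MONO-MAC-6 was mostly RB1-207, a model that starts inside RB1-201 at 48381250 and ends beyond it at 48599436, at 3.41 TPM there and 0.0409 in MOLM-13. A principal transcript at 0 in a line that still had at least 1 TPM of the gene was rare: 4 genes in MONO-MAC-6 (RB1, CTSB, CANX and EEF1A1) of 5819 with a principal transcript at 5 TPM or more in MOLM-13, and 2 in MOLM-13 (NAP1L4 and NME3) of 6000. That transcript held most of the gene's level for RB1 alone. In MOLM-13 it was 29.1 of 36.1 TPM for RB1, 16.2 of 82.4 for CTSB, 56.3 of 138 for CANX and 17.7 of 2955 for EEF1A1. In MONO-MAC-6 it was 25.9 of 75.5 TPM for NAP1L4 and 21.2 of 63.4 for NME3. The split of reads among transcripts is the authors' estimate, and these 6 genes were named after their values were seen.

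In the BCL2 family, 15 genes were tested, 5 higher in MONO-MAC-6, 2 higher in MOLM-13 and 8 not past the threshold, with scaling 3 and 3. These counts are near the shares over all genes tested, 30.7% and 18%. The widest gap was at BIK, a pro-apoptotic BH3 protein, at 83.4, 91.8 and 92.3 TPM in MOLM-13 against 10.6, 11.3 and 12.99 in MONO-MAC-6 (-2.84, SE 0.11, adjusted p = 9.68e-06). PMAIP1 (NOXA) was higher in MONO-MAC-6 (1.16, adjusted p = 0.000845) although it is also a p53 target. The main survival genes did not pass: BCL2 (-0.24, adjusted p = 0.76), MCL1 (0.31, adjusted p = 0.343) and BCL2L1 (0.20, adjusted p = 0.558).

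DNA replication and mitosis genes were all expressed in both lines, 30 of 30 tested. Of them 3 were higher in MONO-MAC-6, 10 higher in MOLM-13 and 17 did not pass, beside 30.7% and 18% over all genes tested. With scaling 1 was higher in MONO-MAC-6 and 21 in MOLM-13. The replicative helicase gene MCM5 measured 138, 121 and 119 TPM in MOLM-13 against 55.8, 66.3 and 76.9 in MONO-MAC-6, and MCM7 295, 279 and 259 TPM in MOLM-13 against 124, 159 and 177 in MONO-MAC-6. The proliferation marker MKI67 measured 59.2, 42.2 and 33.4 TPM in MOLM-13 against 5.79, 19.03 and 19.2 in MONO-MAC-6 (-1.68, adjusted p = 0.0262), with MONO-MAC-6 sample 1 the lowest, and it passed in 4 of 6 leave-one-out fits. PCNA (0.051, adjusted p = 0.66) and TOP2A (0.0081, adjusted p = 0.978) did not pass. Of 15 genes often used as references, 3 were higher in MONO-MAC-6, 6 were higher in MOLM-13 and 6 did not pass. This again stands beside 30.7% and 18% over all genes tested. GAPDH (-0.50) and ACTB (-0.40) were among those higher in MOLM-13. Calls of at least 1 numbered 2 toward MONO-MAC-6 and 0 toward MOLM-13.

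**Figure D3:**
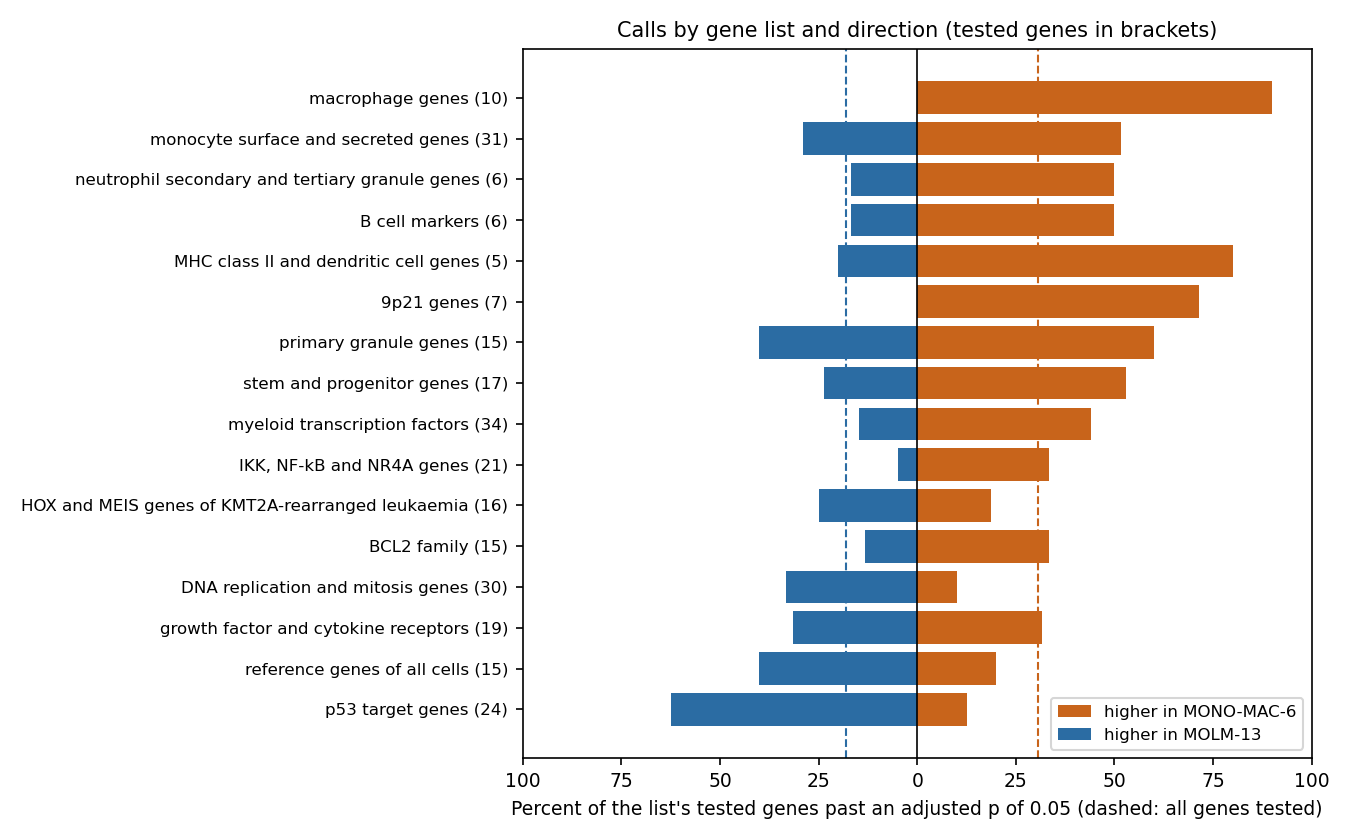
Share of each gene list's tested genes (x axis, percent) past an adjusted p of 0.05, higher in MONO-MAC-6 to the right (orange) and in MOLM-13 to the left (blue), for lists with at least 5 tested genes, ordered by median difference. Dashed lines are the shares over all genes tested, 30.7% and 18%; macrophage genes lie far to the right and p53 target genes to the left.

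More genes that one line expressed were missing from MOLM-13 than from MONO-MAC-6. Of 8571 coding genes at 5 TPM or more in MONO-MAC-6, 70 (0.817%) were at or under 0.1 TPM in every one of the 9 MOLM-13 libraries. In the other direction this held for 8 of 8187 genes (0.0977%). Exactly 0 was listed for 31 of the 70 and 5 of the 8. An exact 0 in such files can also be a failed estimate, and genes expressed in most tissues (PROSER1, DTX3) are among them, so each is given as listed and not as a deletion. With A9, in libraries not used for this choice, 63 of the 70 and 5 of the 8 again stayed at or under 0.1 TPM in every library.

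Among the highest of those missing from MOLM-13 were CDKN2A, UCHL1, DPEP3 (123 TPM in MONO-MAC-6), LPL (87.9), the homeobox gene GSX1 (75.3), the glutathione transferase GSTM3 (56.4) and AEBP1 (44.7). Further down stood PPARG (34.6), the iron exporter SLC40A1 (10.6), CD13 (ANPEP, 15.5) and the proteoglycan VCAN (12.8), so several of the maturation genes above are also of this kind. All 8 missing from MONO-MAC-6 were expressed weakly in MOLM-13, between 5.03 and 12.3 TPM on average: NEFH, a neurofilament, CCDC144NL, the peptide hormone UTS2, NPTX2, the imprinting factor ZFP57 of the MHC region, ZNF655, the carboxypeptidase CPZ and the transcription factor MSC. With A9, NEFH, UTS2 and ZNF655 were above 0.1 TPM in at least 1 MONO-MAC-6 library.

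Some of the missing genes lay side by side. Among 11566 coding genes in order along the autosomes, 15 stretches of 2 or more neighbours were at or under 0.1 TPM in every MOLM-13 library, holding 32 genes, and 1 stretch of 2 genes, RFPL1 and NEFH on chromosome 22, in MONO-MAC-6. CDKN2A and CDKN2B made up 1 of them. A stretch of 3 was ATP6V0E2, ACTR3C and LRRC61 on chromosome 7. ATP6V0E2, a proton pump subunit, averaged 17.8 TPM in MONO-MAC-6 and 0.013 in MOLM-13, and LRRC61 19.1 and 0, while the next genes, ZNF862 and REPIN1, were expressed in both (4.51 and 85.3 TPM in MOLM-13). On chromosome 3, PTPRG and C3orf14 followed FHIT, a gene of a fragile site, which averaged 0.0313 TPM in MOLM-13 against 4.72 in MONO-MAC-6.

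Most other stretches in MOLM-13 were pairs. Named families among them were the tryptases TPSAB1 and TPSD1, next to TPSB2, the gap junction genes GJB2 and GJB6, the chemokines CXCL6 and CXCL1 and the histone genes HIST1H3F and HIST1H2BH. Unrelated neighbours were TM4SF1 with WWTR1, IGFBP3 with ADCY1, CD79B with SCN4A, MARC2 with C1orf115, ESPNL with KLHL30, PXDC1 with FAM50B and ARHGDIG with PDIA2. In 6 of the 15 no gene reached 5 TPM in MONO-MAC-6, so only a low level was missing. Histone messages mostly lack a poly(A) tail, and histone, tryptase and CXCL genes have close copies, so those 3 stretches are less certain. No stretch had more than 3 genes, and DNA was not measured here.

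Class I HLA genes need a separate reading. HLA-B measured 0.906, 0.797 and 0.848 TPM in MOLM-13 against 839, 811 and 807 in MONO-MAC-6, and HLA-C 0.023, 0.0496 and 0.0354 TPM in MOLM-13 against 231, 206 and 212 in MONO-MAC-6. B2M, the light chain that class I molecules share, was 755, 777 and 793 TPM in MOLM-13 against 1906, 1977 and 1768 in MONO-MAC-6 (1.28, adjusted p = 4.4e-05), and HLA-E was 50.4, 47.8 and 44.4 TPM in MOLM-13 against 67.1, 81.4 and 84.2 in MONO-MAC-6. These genes are among the most variable between people, and the values here cover only transcripts of the reference chromosome. Reads of other alleles can be given to transcripts of alternative haplotypes, which had no match in the annotation used. Of the unmatched transcripts, 27 had a mean of at least 5 TPM in MOLM-13 and at most 0.1 TPM in every MONO-MAC-6 library, the highest at 116 TPM. How much of the class I gap unmatched transcripts cover was not tested. HLA-F (0.494, 0.353 and 0.227 against 17.5, 15.02 and 13.9 TPM), PPP1R11, ZFP57, AIF1 and LST1 share the limit.

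Differences also followed chromosomes. Taken relative to the median of all genes tested, the median gene of chromosome 3 stood 0.46 higher in MONO-MAC-6 (737 genes), that of chromosome 21 0.39 (130 genes) and that of chromosome 20 0.34 (363 genes). The median of chromosome 10 was -0.61 (486 genes), of chromosome 12 -0.46 (685 genes), of chromosome 22 -0.43 (322 genes) and of chromosome 13 -0.21 (236 genes). The remaining 15 chromosomes lay between -0.12 and 0.14. Each MONO-MAC-6 sample gave the same sign for those 7 chromosomes; for chromosome 10, for example, the 3 samples gave -0.65, -0.57 and -0.56. PDLIM1 lies on chromosome 10, CD4 and HOXC4 on 12, BIK on 22, RB1 and TNFRSF19 on 13, and PPARG on 3. These went the way of their chromosome's median. Other named genes went against it: GSX1 (6.25) and GJB6 (3.27) on 13, DTX3 (5.13) on 12 and LAMP5 (-5.58) on 20. Neither set is complete. Genes of a chromosome are not replicates, so no test is given, and copy number was not measured here.

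**Figure D4:**
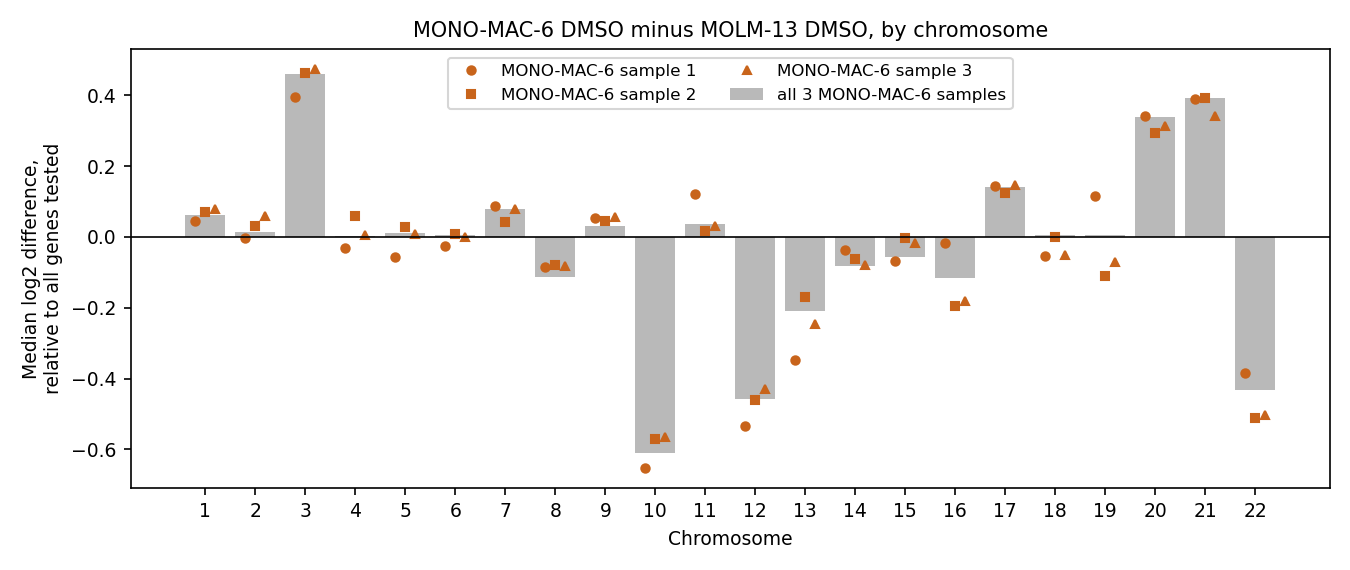
Median log2 difference of the genes tested on each chromosome, MONO-MAC-6 DMSO minus MOLM-13 DMSO, relative to the median of all genes tested (y axis), by chromosome (x axis). Bars use all 3 MONO-MAC-6 samples and points single samples against the MOLM-13 mean; chromosomes 3, 20 and 21 stand above 0 and 10, 12 and 22 below.

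The same contrast was read in the A9 samples, which share no library with the DMSO samples. The dose differed between the lines, so an effect of the line and one of the dose cannot be told apart there. Of 12742 genes tested, 8962 (70.3%) passed the threshold. Of the 2921 genes that differed by at least 1 in DMSO and were tested in both, 2906 had the same direction with A9 and 2842 of them also passed. Over all 12270 genes tested in both, 82.7% had the same direction. The 2364 genes past the threshold with at least 1 in both and in the same direction were 79.3% of the DMSO list and 66.0% of the A9 list.

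Among 159 named genes with a value in both, 148 had the same sign. CDKN2A (9.18 in DMSO and 9.06 with A9), PDLIM1 (-8.08 and -7.99), CD4 (-5.11 and -5.03) and CDKN1A (-3.84 and -3.99) were close in both. Others were not: PRTN3 went from 6.30 to 2.24, HP from 2.62 to 5.82, TYROBP from -1.82 to 0.18, MS4A6A from -2.36 to -0.95, IL6R from -2.03 to -0.71 and CD14 from 1.67 to 3.40. The difference between the 2 contrasts was not tested here. IKBKB, lower in MONO-MAC-6 by a margin that did not pass in DMSO, differed by 0.045 with A9.

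**Figure D5:**
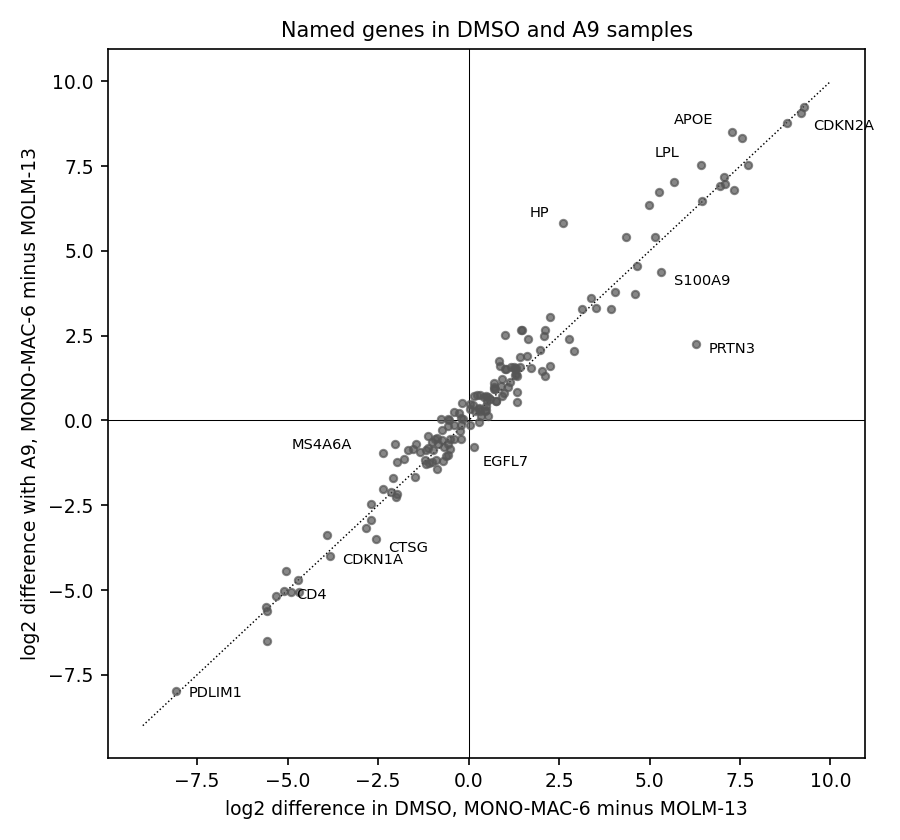
Log2 difference MONO-MAC-6 minus MOLM-13 of 159 named genes in DMSO (x axis) and with A9 (y axis), each point 1 gene, the dotted line equal values. Most points lie along the line, PRTN3 below it and HP above it.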

How the data were processed

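The authors deposited 1 table per cell line with a TPM value for each of 207175 Ensembl transcripts and 9 DMSO and 9 A9 libraries. Per the submitters' processing notes, kallisto and limma were used with GRCh38; versions and the use of each are not given in the sources used here. Per the labels, poly(A) RNA was sequenced as paired ends. TPM is scaled within each library, so the 2 tables were compared directly. Every column of values was mapped to a sample (0 were left over).

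TPM values were summed to genes through GENCODE 29 (162561 transcripts, 78.5%, matched, with 89.9% to 91.2% of the TPM of the DMSO libraries). The 3 libraries that share a first number in the labels were averaged into 1 sample, because they lay closer together (median SD on the log2 scale 0.0706 for MOLM-13, 0.0713 for MONO-MAC-6) than libraries of different first numbers (0.160 and 0.266). Of 33293 autosomal genes, those averaging 1 TPM or more in either line were tested on log2(TPM + 1) with limma 3.58.1 (R 4.3.3; moderated with an intensity trend and robust fitting), Benjamini-Hochberg adjusted over all of them, at 0.05. An exact permutation test of 3 samples against 3 cannot go below p = 0.1. The fit was tested on simulated data. Python 3.11.15 with pandas 2.3.3 and numpy 2.4.6 wrote the tables.

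Genes were named by rule: the 10 highest and 10 lowest differences past the threshold, in each list up to 6 members by mean level and up to 3 each way by difference past the threshold, the 8 highest of the genes near 0 in each line, every gene of a stretch, and IKBKB, CHUK and NR4A1. Genes of the lists given outside the rule, chosen after their values were seen, were ANPEP, AZU1, BBC3, BCL2, BCL2L1, BCL3, BCL6, CCR2, CD14, CD33, CD38, CEBPD, FAS, FCER1G, GATA2, IKBKE, ITGAM, KMT2A, LILRB4, MDM2, MEIS1, MSR1, NFKBIA, PRSS57, RNASE3, RUNX3, S100A12, TOP2A, TRAF1, TREM2, TYROBP and VCAN. Outside the lists they were RB1, FHIT, HLA-E, HLA-F, LST1, TUSC1, DTX3, PROSER1 and PPP1R11. Members, lists and rules were chosen with earlier results of these data known. Other scalings, filters, pseudocounts, sample definitions and left-out samples were tried. Promoters came from RefSeq on GRCh38.p14. Results of a few genes are not reported here.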

Additional observations from a re-analysis of the deposited data

Results flagged for a closer look

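Transcripts without a match in the annotation entered none of the comparisons above. Among the 1598 of them averaging 5 TPM or more in MONO-MAC-6 with DMSO, 53 (3.32%) were at or under 0.1 TPM in every MOLM-13 library with DMSO, with a median of 9.41 TPM, a highest value of 143.9 TPM and a sum of 894 TPM. Among the 1418 with at least 5 TPM in MOLM-13, 27 (1.9%) were at or under 0.1 TPM in every MONO-MAC-6 library, the highest at 116 TPM, with a sum of 454 TPM. They were singled out because they show a signal in 1 line, in values that the gene sums leave out; their genes were not identified here.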

How the results depend on the processing

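The number of genes past the threshold (6090) ranged from 4240 to 8940 under the settings tried, other than 2. A replicate block on the first number left 3954 (2653 higher in MONO-MAC-6 and 1301 in MOLM-13), and averaging by the second number gave 10686 (6286 and 4400). The numbers do not pair the samples: the correlations of the deviations of same-numbered samples were -0.650, 0.0686 and -0.598. Those of differently numbered samples ran from -0.518 (MONO-MAC-6 sample 2 with MOLM-13 sample 3) to 0.671 (MONO-MAC-6 sample 1 with MOLM-13 sample 3). The call totals ran from 4471 to 7813 with 1 sample left out, the highest without MONO-MAC-6 sample 1. Of 149 named genes past the threshold, 117 kept it in every setting with a value and 32 lost it in at least 1, and none of the 149 changed sign. The share of calls higher in MONO-MAC-6 was 63.0%, and 50.3% with the length trend removed and 68.0% without MONO-MAC-6 sample 1. In the A9 contrast, leaving out 1 sample gave 7841 to 9980 calls and a replicate block 8993; with median-ratio scaling there were 4239 and 4901 in place of 6422 and 2540.

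Genes near 0 in MOLM-13 (70) numbered 31 when listed at exactly 0, 172 at up to 0.5 TPM, 45 with a minimum of 10 TPM in MONO-MAC-6, and 69 to 84 with 1 sample left out. Those near 0 in MONO-MAC-6 (8) numbered 5, 38, 1 and 6 to 10. The next settings were added after the data were seen. Stretches in MOLM-13 (15) numbered 3 at exactly 0 and 53 at up to 0.5 TPM, and in MONO-MAC-6 (1) 0 and 10. With 1 sample left out, chromosome medians relative to all genes ran from 0.44 to 0.46 (chromosome 3), -0.62 to -0.58 (10), -0.49 to -0.46 (12), 0.297 to 0.361 (20), 0.360 to 0.422 (21) and -0.522 to -0.409 (22). Scaling gave 0.0404 for chromosome 9 in place of 0.0306. Listed genes past the threshold (186 of 284) ran from 147 to 205 with 1 sample left out, and from 138 (replicate block) to 262 (second number) over the other settings. The causes were not tested. Depth is unknown, so no value at or near 0 has a limit from counting.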
